A study of Homo sapiens with 9 samples.

Results

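The genes described here are 48 direct targets of the tumour suppressor p53 that are not known to be activated by the stress factors ATF4 or CHOP as well. They were picked by name from knowledge of p53 biology, with earlier results of these data known. All 48 were found among the 56865 genes summed from the deposited transcript tables. Their RNA was followed in 9 sequencing libraries made from poly(A) RNA of the pancreatic adenocarcinoma line BxPC3, as the labels name it, and all 9 carry the genotype label p53Y220C/-. The groups were DMSO vehicle, MS172 and PK9328, with 3 libraries each. The compounds were given at 5 µM for 6 h according to a protocol that mentions PK9328 and MS78 but not MS172, so whether this dose and time hold for MS172 is unclear. The series design asks how expression differs between DMSO and MS172. All groups share the mutant genotype and no library with wild-type p53 was analysed here, so none of the comparisons measures what p53 itself contributes.

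p53 is a transcription factor that binds DNA as a tetramer, at response elements made of a pair of half-sites. It is held low by MDM2 and MDM4, and after damage it activates genes for cell cycle arrest, repair, death, metabolism and its own restraint. The Y220C change replaces a tyrosine of the DNA-binding domain by a cysteine, which leaves a surface pocket and makes the protein unstable. PK9328 is known as a compound that binds that pocket, and MS172 is known here by its code name. ATF4 and CHOP are factors of the integrated stress response that also activate some well-known p53 targets, among them CDKN1A, and those genes were kept out of the set.

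Response elements in the promoters are shown first, because such elements are what p53 binds at a direct target. The search covered 250 bases before to 50 bases after each start in RefSeq's table (GRCh38.p14), on both strands, for the p53 response element consensus with 2 half-sites of 10 bases, 0 to 13 bases between them and at most 2 mismatches, none of them at the central C and G of a half-site. Windows were present for 40 of the 48 members. A match was found in 5 of these 40 (12.5%), against 989 of 27305 genes with a window (3.62%). A core pair, CATG and CATG with any 6 bases between them, was found in 1 of 40 members (2.5%) and in 129 of all genes (0.472%). In the sequences below, capitals mark the half-sites, or the core letters for TRIAP1, and lower case marks the bases between them, all 5′ to 3′ on the gene's strand.
FAS at chr10:88991309-88991328, plus strand: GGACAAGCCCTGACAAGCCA
DDB2 at chr11:47214979-47214999, plus strand: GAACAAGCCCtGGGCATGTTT
TRIAP1 at chr12:120446340-120446353, minus strand: CATGcacggaCATG
ABHD4 at chr14:22598274-22598303, plus strand: GGGCTCGCCAggacctggcaAGGCTTGTTT
AEN at chr15:88621306-88621325, plus strand: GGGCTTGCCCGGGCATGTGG
FDXR at chr17:74872996-74873025, minus strand: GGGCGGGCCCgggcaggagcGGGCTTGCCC
The DDB2 element had 0 mismatches and 1 base between its half-sites, and it began 5 bases after the start of its window's gene. The FAS, AEN, ABHD4 and FDXR elements each had 2 mismatches. The half-sites adjoined in FAS and AEN and were 10 bases apart in ABHD4 and FDXR. In GENCODE 29 the DDB2, ABHD4, AEN and FDXR matches lie in untranslated exon sequence, and those of FAS and TRIAP1 lie in an exon of some transcript. A match is a description of letters and not of binding, and many p53 elements lie outside such windows.

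The libraries held between 24077353 and 28031886 estimated reads, and 13914 genes passed the filter on low counts. Levels are given as CPM, counts scaled to a common library size with TMM factors, and as TPM, which is also per transcript length, where genes are compared with each other. RNA fragments were shorter in every PK9328 library (249.5 to 263 bases) than in the DMSO libraries (281 to 289 bases) and the MS172 libraries (274 to 293 bases). The epithelial genes EPCAM, CDH1 and KRT7 were at or below 0.103 CPM in every library and 8 of 16 epithelial and ductal markers were under 1 CPM throughout, whereas the keratin KRT18 stood at 748 to 818 CPM with DMSO. Of 14 mesenchymal and fibroblast markers 9 were under 1 CPM throughout, and VIM alone read 9198 to 9568 CPM with DMSO. COL1A2 averaged 2416 CPM and ZEB1 91.8 CPM with DMSO. The very low EPCAM, CDH1 and KRT7 and the high VIM and COL1A2 go against an epithelial adenocarcinoma line, while KRT18 goes with one. The identity of the line rests on the labels alone and was not tested. The summed level of the 16 epithelial markers was 2192 to 2362 CPM with DMSO, 2668 to 2834 CPM with MS172 and 2049 to 2125 CPM with PK9328. That of the 14 mesenchymal markers was 11790 to 11970 CPM, 12400 to 12930 CPM and 9984 to 10250 CPM in the same order, and the part of either in the results below was not tested. Of 8 leukocyte markers 6 were under 1 CPM throughout, PTPRC among them at no more than 0.11 CPM. CD68 averaged 20.1 CPM and LYZ 1.26 CPM with DMSO, where the 8 summed to 21.0 to 22.6 CPM. The 6 endothelial markers together reached at most 0.449 CPM.

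Of the 48 members, 42 passed the filter. The other 6 were the decoy receptor TNFRSF10C, the ectodysplasin receptor EDA2R, the mitochondrial quality gene SPATA18, the KIT ligand KITLG, the ubiquitin ligase gene TRIM22 and the transcriptional repressor PRDM1. None of these 6 was above 0.326 CPM in any library, and EDA2R and SPATA18 had 0 CPM in all 9. With DMSO the tested members had a median of 11.0 TPM, and 24 were at 10 TPM or more. On the TPM scale the highest was PLK2, a polo-like kinase, at 350 ± 16.3 TPM (SD, n = 3), followed by CCNG1, cyclin G1, at 117 ± 8.89 TPM, and CMBL, a hydrolase, at 61.8 ± 3.55 TPM. FBXO22, an F-box protein, at 51.5 ± 4.67 TPM and FDXR, ferredoxin reductase, at 48.7 ± 0.828 TPM did not differ beyond their spread. At the low end of the tested members, ACER2, an alkaline ceramidase, stood at 0.306 ± 0.0240 TPM.

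With MS172, 3 members rose and 10 fell against DMSO at an edgeR adjusted p under 0.05 over all genes tested, and 29 did not pass. Of all 13914 genes tested, 35.1% passed in this comparison, 17.9% higher and 17.2% lower. The members' shares were 7.14% higher and 23.8% lower. Their median log2 fold change was 0.01, against -0.02 over all genes, and ran from -0.012 to 0.025 when a library was left out. With the fragment length covariate the same 13 members passed, beside 36.1% of all genes, 18.2% higher and 17.9% lower. The fallers included both polo-like kinases (PLK2, PLK3), 3 of 6 repair genes (XPC, REV3L, ASCC3) and CES2, and the risers were RPS27L, ABHD4 and DUSP14. Without DMSO replicate 1 or without MS172 replicate 1, 5 members were higher. Falls ranged from 13.2% to 22.8% and rises from 16.5% to 28.4%.

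With PK9328, 8 members rose and 0 fell against DMSO by the same edgeR test, and 34 did not pass. Across all genes tested 15.5% passed, 7.98% higher and 7.48% lower. The members' share higher was 19.0%, and their median log2 fold change was 0.03, against 0.00 over all genes. Leaving out a library gave medians of 0.038 to 0.0798, all above that of the whole set. At an unadjusted p under 0.05, 14 members were higher and 2 lower (ZMAT3 and CMBL). DESeq2 called 6 higher and limma-voom 8, and both called 0 lower. ZMAT3 passed as lower without DMSO replicate 3 (edgeR, adjusted p = 0.0179). The 8 risers were the death genes AEN and TP53INP1, the kinase PLK3, the phosphatases PTP4A1 and PPM1D, the metabolic genes TIGAR and ABHD4, and BLOC1S2. Their rises were 13.4% to 39.4%. With each library's fragment length as a covariate, 0 of the 8 passed, and 1.26% of all genes did (0.783% higher and 0.474% lower). The log2 fold change of AEN was then 0.34 with an SE of 0.12, against 0.42 with an SE of 0.06 without the covariate. Under DESeq2 the calls of TP53INP1 and BLOC1S2 were lost, and with counts rebuilt from TPM and length those of ABHD4, PLK3 and TP53INP1. Since no PK9328 library had a fragment length as long as any DMSO library, compound and fragment length cannot be told apart in this comparison. In bulk RNA a lower level in every cell and fewer cells that express a gene cannot be told apart either.

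**Figure D1:**
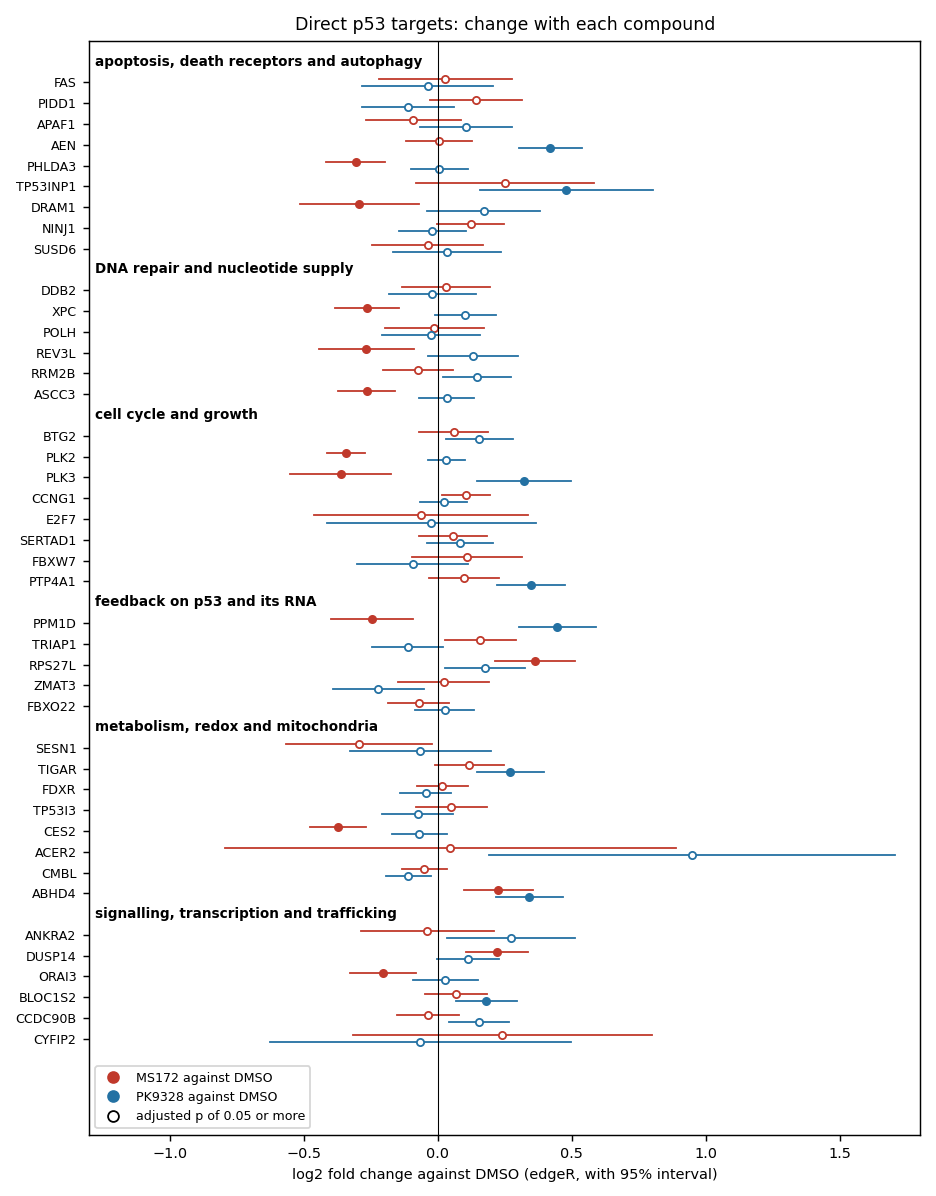
Log2 fold change against DMSO (x axis) of the 42 members tested (y axis, grouped by role) for MS172 in red and PK9328 in blue. Lines are 95% intervals derived from edgeR's test, filled points have an adjusted p under 0.05 and open points do not. PLK3 and PPM1D have filled points on opposite sides of 0, and ABHD4 has both filled points above 0.

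**Figure D2:**
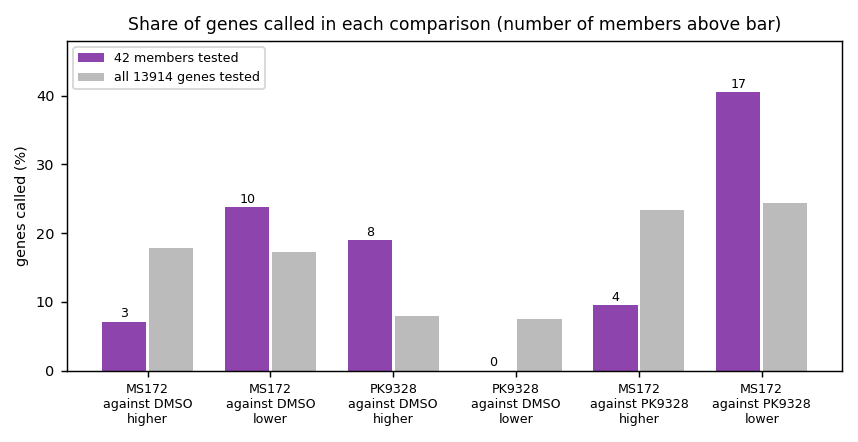
Percent of genes called in each comparison and direction (y axis, from 0) for the 42 members tested (purple, with the number of members above the bar) and for all 13914 genes tested (grey). For MS172 against PK9328, 17 members (40.5%) were lower, against 24.4% of all genes.

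Set directly against each other, the compounds differed in 21 of 42 members by edgeR's test, and 4 were higher and 17 lower with MS172 than with PK9328. The share of all genes that passed was 47.7%, with 23.3% higher and 24.4% lower. The members' shares were 9.52% higher and 40.5% lower, and their median log2 fold change was -0.11, against -0.03 over all genes. This comparison shares its libraries with both others, so it adds no separate sample. With the fragment length covariate 1 member was higher and 6 were lower, and 17.8% of all genes passed (9.83% higher and 7.95% lower). All 7 of these (RPS27L higher, and PHLDA3, XPC, REV3L, PLK2, PLK3 and PPM1D lower) were among the 21. No PK9328 library had a fragment length as long as any MS172 library, so compound and fragment length cannot be told apart here either. Without the covariate, the 4 higher calls became 2 when MS172 replicate 2 or PK9328 replicate 2 was left out.

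Among the 11 genes of apoptosis, death receptors and autophagy, 9 were tested. Of these, 2 fell with MS172 (22.2%) and 2 rose with PK9328 (22.2%), beside 17.2% and 7.98% of all genes tested. The roles hold few genes and were not tested as sets. PHLDA3, which competes with AKT for membrane lipids and so restrains survival signalling, read 48.3, 45.5 and 44.8 CPM with DMSO, 35.8, 39.2 and 37.2 CPM with MS172, and 47.9, 47.5 and 43.8 CPM with PK9328. All 3 MS172 libraries lay below the other 6. PHLDA3 fell with MS172 by 0.31 on the log2 scale with an SE of 0.05 (edgeR, adjusted p = 5.55e-05), and its value with PK9328 was 0.01 (adjusted p = 0.962). DRAM1, a lysosomal membrane protein of autophagy, was at 7.91, 7.94 and 9.09 CPM with DMSO and at 6.69, 7.19 and 6.47 CPM with MS172. These groups did not overlap, and DRAM1 fell by 0.29 on the log2 scale with an SE of 0.11 (edgeR, adjusted p = 0.0358). The DRAM1 call was lost without DMSO replicate 3, MS172 replicate 1 or MS172 replicate 3 and under DESeq2, with a largest adjusted p of 0.219 over all alternatives.

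AEN, an exonuclease that digests nuclear DNA in dying cells, carries one of the promoter elements printed above. Its levels were 25.9, 27.5 and 27 CPM with DMSO, 26.7, 27.7 and 26.1 CPM with MS172, and 36.3, 33.8 and 37.4 CPM with PK9328. The PK9328 libraries stood apart from all 6 others, which overlapped. AEN rose with PK9328 by 0.42 on the log2 scale with an SE of 0.06 (edgeR, adjusted p = 5.12e-06), and its log2 fold change with MS172 was 0.00 with a 95% interval of -0.12 to 0.13. TP53INP1, a nuclear body and autophagy protein, was low at 2.36, 3.50 and 3.06 CPM with DMSO and 4.11, 4.31 and 4.06 CPM with PK9328. Its log2 fold change with PK9328 was 0.48 with an SE of 0.16 (edgeR, adjusted p = 0.0362), and the call was lost in 5 of the 6 fits that left out a library and held only without DMSO replicate 2. MS172 libraries had 3.35, 3.55 and 3.75 CPM of TP53INP1 and did not pass (adjusted p = 0.246).

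FAS, the death receptor, carries an element with adjoining half-sites and did not pass with either compound. It read 5.35, 5.93 and 6.56 CPM with DMSO, 5.83, 6.26 and 6.09 CPM with MS172, and 5.80, 5.40 and 6.18 CPM with PK9328, and the 3 groups overlapped. Its log2 fold change was 0.03 with MS172 (95% interval -0.22 to 0.28) and -0.04 with PK9328 (-0.28 to 0.21). PIDD1, a death-domain scaffold, passed only in the direct comparison, where it was higher with MS172 by 0.25 on the log2 scale (edgeR, adjusted p = 0.0139), and this was lost without MS172 replicate 2 or 3 and without PK9328 replicate 1 or 2. The remaining 3 tested genes of this role, the apoptosome core APAF1, the membrane rupture gene NINJ1 and SUSD6, passed in no comparison.

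All 6 genes of DNA repair and nucleotide supply were tested. With MS172 3 fell (50%), beside 17.2% of all genes tested, and with PK9328 0 passed, beside 15.5%. XPC, which recognises helix distortions in nucleotide excision repair, was at 31.1, 30.8 and 31.9 CPM with DMSO, 25.1, 25.8 and 27.2 CPM with MS172, and 34.1, 32.3 and 34.4 CPM with PK9328. The 3 groups did not overlap. XPC fell with MS172 by 0.26 on the log2 scale with an SE of 0.06 (edgeR, adjusted p = 6.70e-04), and its difference with PK9328 was 0.10 (adjusted p = 0.229). ASCC3, a helicase of alkylation repair and ribosome rescue, was at 44.8, 47.4 and 43.7 CPM with DMSO and 39.5, 36.1 and 37.5 CPM with MS172. Its log2 fold change was -0.27 with an SE of 0.05 (edgeR, adjusted p = 2.03e-04). When counts were rebuilt from TPM and transcript length the ASCC3 value was -0.25 with an adjusted p of 0.421.

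REV3L, the catalytic subunit of the translesion polymerase zeta, read 23.6, 25.1 and 21.2 CPM with DMSO, 20, 17.0 and 21.1 CPM with MS172, and 26.1, 27.7 and 22.9 CPM with PK9328. The highest MS172 library lay just under the lowest DMSO library. REV3L fell by 0.27 on the log2 scale with an SE of 0.09 (edgeR, adjusted p = 0.0189), and the call was lost without DMSO replicate 1, DMSO replicate 2 or MS172 replicate 2 and with counts rebuilt from TPM and length (adjusted p = 0.212). DDB2, which finds ultraviolet lesions and has the promoter element with 0 mismatches, was at 15.0, 15.1 and 16.9 CPM with DMSO. It read 15.7, 15.6 and 16.5 CPM with MS172 and 16, 16.2 and 14 CPM with PK9328, and the groups overlapped. The DDB2 log2 fold changes were 0.03 (95% interval -0.13 to 0.19) and -0.02 (-0.18 to 0.14). RRM2B, the p53-inducible ribonucleotide reductase subunit, had log2 fold changes of -0.08 with MS172 and 0.15 with PK9328, neither of which passed, and the difference between compounds did at -0.22 with an SE of 0.06 (edgeR, adjusted p = 0.00460). The remaining member, the polymerase gene POLH, passed in no comparison.

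**Figure D3:**
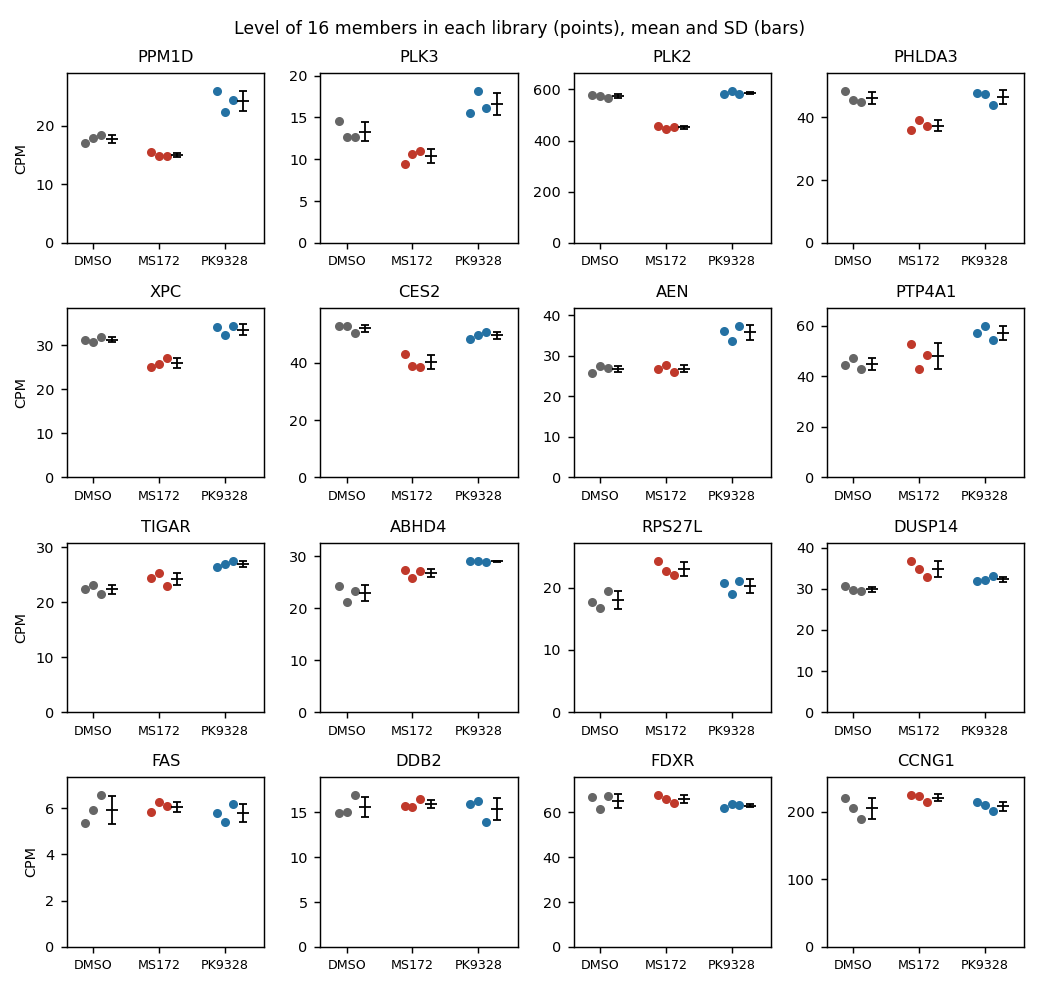
Level in CPM (y axis, each panel from 0) of 16 members in each library of the DMSO, MS172 and PK9328 groups, with the mean and SD of 3 libraries beside the points. PLK3 and PPM1D step down with MS172 and up with PK9328, and the points of FAS, DDB2 and FDXR overlap between DMSO and each compound.

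Among the 8 cell cycle and growth genes, all tested, PLK2 and PLK3 fell with MS172 (25%), and PLK3 and PTP4A1 rose with PK9328 (25%). The matching shares of all genes tested were 17.2% and 7.98%. PLK2 and PLK3 are stress-responsive polo-like kinases. PLK2 read 580, 575 and 565 CPM with DMSO, 457, 446 and 454 CPM with MS172, and 583, 592 and 583 CPM with PK9328. The MS172 libraries lay more than 100 CPM below all others. PLK2 fell with MS172 by 0.34 on the log2 scale with an SE of 0.03 (edgeR, adjusted p = 6.24e-09), the smallest p of the members in this comparison. The PLK2 value with PK9328 was 0.03 (adjusted p = 0.601).

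PLK3 was at 14.6, 12.7 and 12.7 CPM with DMSO, 9.43, 10.7 and 11.0 CPM with MS172, and 15.6, 18.1 and 16.2 CPM with PK9328. No group overlapped another. The log2 fold change was -0.36 with an SE of 0.09 with MS172 (edgeR, adjusted p = 0.00273) and 0.32 with an SE of 0.09 with PK9328 (adjusted p = 0.00998), and the direct difference was -0.68 with an SE of 0.09 (adjusted p = 2.84e-07). The PK9328 call was lost without DMSO replicate 3 or PK9328 replicate 2. PTP4A1, a growth-promoting phosphatase, read 44.7, 47.2 and 42.9 CPM with DMSO, 53, 42.9 and 48.3 CPM with MS172, and 57.3, 60 and 54.4 CPM with PK9328. The rise with PK9328 was 0.35 on the log2 scale with an SE of 0.06 (edgeR, adjusted p = 3.53e-04), and MS172 libraries overlapped DMSO.

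CCNG1, a cyclin that recruits a phosphatase to MDM2, stood at 219.8, 206 and 189 CPM with DMSO, 224, 222 and 215 CPM with MS172, and 214, 209.6 and 200.4 CPM with PK9328. Both compounds overlapped DMSO, and all MS172 libraries lay above those of PK9328. Its log2 fold changes were 0.11 with MS172 (edgeR, adjusted p = 0.0603) and 0.02 with PK9328 (adjusted p = 0.804). With MS172, CCNG1 passed in 6 of 11 other settings, DESeq2 among them (adjusted p = 0.0491), and without DMSO replicate 1 (adjusted p = 0.00692). BTG2, an antiproliferative gene, had 25.0, 27.3 and 25.8 CPM with DMSO and 30.3, 28.3 and 28.6 CPM with PK9328. These groups did not overlap, yet the log2 fold change of 0.16 did not pass (edgeR, adjusted p = 0.0856). E2F7, SERTAD1 and FBXW7 passed in no comparison.

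PLK2 has 15 transcripts in the files, and 3 of them carried most of its TPM. The coding transcript PLK2-201 (2960 bases) read 239, 249.9 and 229 TPM with DMSO, 173, 171 and 178 TPM with MS172, and 243, 247 and 226 TPM with PK9328. It followed the gene sum. PLK2-206 (625 bases), annotated as a retained intron, read 74.4, 60.2 and 25.6 TPM with DMSO, 34.5, 0 and 14.4 TPM with MS172, and 92.6, 132 and 162 TPM with PK9328. PLK2-204 (587 bases), also annotated as a retained intron, was at 44.4 to 74.1 TPM with DMSO, 25.4 to 29.5 TPM with MS172 and 69.1 to 79.7 TPM with PK9328. PLK2-206 lay above all other libraries in those of PK9328, the ones with the shortest fragments, and the part of fragment length in the level of so short a transcript was not tested. By estimated reads PLK2-201 held 94.5% of the gene with DMSO, 96.9% with MS172 and 89.5% with PK9328.

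The letters that set PLK2-206 apart are those where its exon runs on into the intron. In GENCODE 29 on GRCh38 it keeps 120 bases of intron at chr5:58458865-58458984 on the minus strand. The sequence at chr5:58458955-58459014 gives 30 bases on each side of the splice donor, with exon 2 in capitals and the retained intron in lower case, starting with the donor's gt.
PLK2 exon 2 and intron: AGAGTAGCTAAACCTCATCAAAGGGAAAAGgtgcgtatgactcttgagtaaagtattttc
With counts rebuilt from TPM and length, which weights these short transcripts more, the PLK2 log2 fold change was -0.52 with MS172 (edgeR, adjusted p = 1.23e-04) and 0.30 with PK9328 (adjusted p = 0.0110), so the PK9328 call depends on that choice.

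**Figure D4:**
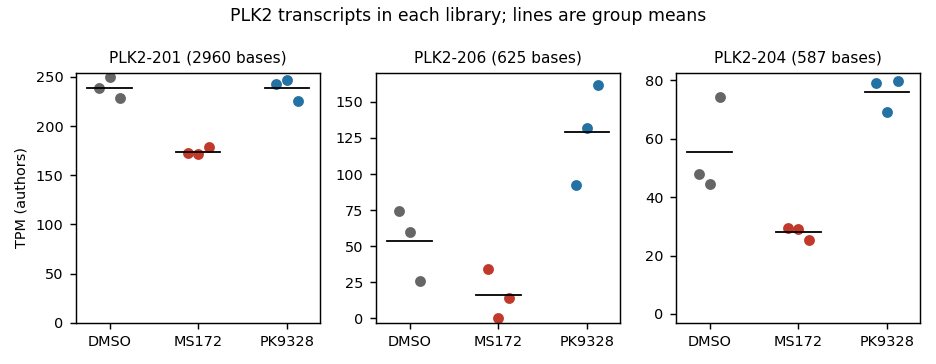
TPM (y axis, as computed by the authors) of the 3 leading PLK2 transcripts in each library, with group means as lines. PLK2-201 is lower in the 3 MS172 libraries, and PLK2-206 runs from 0 to 34.5 TPM with MS172 and from 92.6 to 162 TPM with PK9328.

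All 5 genes of feedback on p53 and its RNA were tested. With MS172 RPS27L rose (20%) and PPM1D fell (20%), beside 17.9% and 17.2% of all genes tested. With PK9328 PPM1D rose (20%), beside 7.98%. PPM1D encodes WIP1, the phosphatase that removes activating phosphates from p53 and its kinases. It read 17.1, 17.9 and 18.5 CPM with DMSO, 15.5, 14.8 and 14.8 CPM with MS172, and 25.9, 22.4 and 24.5 CPM with PK9328, and no group overlapped another. PPM1D differed from DMSO by -0.24 on the log2 scale with an SE of 0.07 with MS172 (edgeR, adjusted p = 0.0112) and 0.45 with an SE of 0.07 with PK9328 (adjusted p = 3.58e-05). The direct difference of -0.69 with an SE of 0.07 (edgeR, adjusted p = 4.61e-09) held in all 6 fits that left out a library. The fall with MS172 did not pass under DESeq2 or with an offset for GC content and length (largest adjusted p 0.174). Its leading transcript by TPM, PPM1D-202, is annotated for nonsense-mediated decay, and read 2.9 to 3.5 TPM with DMSO, 2.4 to 2.6 TPM with MS172 and 4.2 to 5.3 TPM with PK9328.

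RPS27L, a ribosomal protein-like regulator of MDM2, was at 17.6, 16.7 and 19.5 CPM with DMSO, 24.3, 22.6 and 22.1 CPM with MS172, and 20.8, 19.0 and 21.0 CPM with PK9328. MS172 libraries were the highest and did not overlap DMSO. The log2 fold change with MS172 was 0.36 with an SE of 0.07 (edgeR, adjusted p = 2.63e-04), and the value is uncertain where reads are shared with the related gene RPS27. TRIAP1, a small inhibitor of apoptosis and the member with the core pair, read 26.5, 30.1 and 27.5 CPM with DMSO, 29.3, 32.0 and 32.7 CPM with MS172, and 24.4, 25.5 and 28 CPM with PK9328. TRIAP1 passed only between the compounds, higher with MS172 by 0.27 on the log2 scale with an SE of 0.07 (edgeR, adjusted p = 0.00104). Its log2 fold change against DMSO was 0.16 with an SE of 0.07 with MS172, just short of passing (edgeR, adjusted p = 0.0578). With PK9328 it was -0.11 (edgeR, adjusted p = 0.27). ZMAT3, a splicing regulator that acts in p53 tumour suppression, had 16.8, 17.3 and 14.1 CPM with DMSO, 17.3, 16 and 15.7 CPM with MS172, and 14.4, 14.1 and 12.9 CPM with PK9328. ZMAT3 was likewise higher with MS172 than with PK9328, by 0.24 with an SE of 0.08 (edgeR, adjusted p = 0.0180), a call lost without MS172 replicate 1 or PK9328 replicate 3. FBXO22 passed in no comparison.

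Of 9 genes of metabolism, redox and mitochondria, 8 were tested. MS172 had 1 higher (ABHD4, 12.5%) and 1 lower (CES2, 12.5%), beside 17.9% and 17.2% of all genes tested. PK9328 had 2 higher (TIGAR and ABHD4, 25%), beside 7.98%. CES2, a carboxylesterase that hydrolyses esters and prodrugs, read 52.9, 52.7 and 50.5 CPM with DMSO, 43.0, 38.9 and 38.7 CPM with MS172, and 48.5, 49.6 and 50.8 CPM with PK9328. MS172 libraries lay below all others. CES2 fell with MS172 by 0.37 on the log2 scale with an SE of 0.05 (edgeR, adjusted p = 1.76e-06), and the value with PK9328 was -0.07 (adjusted p = 0.406). ABHD4, a lipid hydrolase with a promoter element, read 24.3, 21.2 and 23.4 CPM with DMSO, 27.3, 25.9 and 27.2 CPM with MS172, and 29.2, 29.1 and 28.9 CPM with PK9328. It was the member that rose with both compounds, by 0.23 with an SE of 0.06 with MS172 (edgeR, adjusted p = 0.00578) and by 0.34 with an SE of 0.06 with PK9328 (adjusted p = 2.10e-04), against shared controls. Without DMSO replicate 2 the MS172 call was lost (edgeR, adjusted p = 0.0533), and with counts rebuilt from TPM and length neither call passed (adjusted p = 0.174 and 0.055).

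TIGAR, a phosphatase that lowers glycolytic flux, read 22.4, 23.1 and 21.6 CPM with DMSO, 24.4, 25.3 and 23.1 CPM with MS172, and 26.4, 27 and 27.6 CPM with PK9328. Its rise with PK9328 was 0.27 on the log2 scale with an SE of 0.06 (edgeR, adjusted p = 0.00247). SESN1, a sestrin that restrains mTORC1, had 6.47, 6.59 and 7.21 CPM with DMSO and 6.65, 4.53 and 5.30 CPM with MS172. These overlapped, and the log2 fold change of -0.29 (95% interval -0.57 to -0.02) did not pass (edgeR, adjusted p = 0.0852), though it did without MS172 replicate 1 (adjusted p = 0.0167). FDXR, which carries an element with half-sites 10 bases apart, read 66.8, 61.6 and 67.2 CPM with DMSO, 67.7, 66.0 and 64.2 CPM with MS172, and 62.1, 63.7 and 63.5 CPM with PK9328. Its intervals were narrow, with log2 fold changes of 0.02 with MS172 (-0.08 to 0.11) and -0.05 with PK9328 (-0.14 to 0.05). The quinone oxidoreductase gene TP53I3 and CMBL passed in no comparison.

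Of 9 genes of signalling, transcription and trafficking, 6 were tested. MS172 had 1 higher (16.7%) and 1 lower (16.7%), beside 17.9% and 17.2% of all genes tested. PK9328 had 1 higher (16.7%), beside 7.98%. DUSP14, a phosphatase of MAP kinases, read 30.6, 29.7 and 29.5 CPM with DMSO, 36.9, 34.8 and 32.9 CPM with MS172, and 32.0, 32.0 and 33.1 CPM with PK9328. It rose with MS172 by 0.22 on the log2 scale with an SE of 0.06 (edgeR, adjusted p = 0.00300), with no overlap with DMSO. ORAI3, a store-operated calcium channel subunit, read 29, 27.7 and 28.2 CPM with DMSO and 23.7, 25.9 and 24.1 CPM with MS172. The log2 fold change of -0.20 with an SE of 0.06 (edgeR, adjusted p = 0.00912) shrank to -0.05 when counts were rebuilt from TPM and length (adjusted p = 0.637). Its long transcript ORAI3-201 (2206 bases) was at 14.6 to 15.5 TPM with DMSO and 10.4 to 11.9 TPM with MS172, and the short ORAI3-202 (628 bases) was at 11.4 to 13.2 TPM and 10.7 to 13.9 TPM.

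BLOC1S2, a subunit of a lysosome-related trafficking complex, read 30.8, 34.5 and 32.2 CPM with DMSO and 37.7, 36.5 and 36.6 CPM with PK9328. It rose by 0.18 on the log2 scale with an SE of 0.06 (edgeR, adjusted p = 0.0224), and the call was lost without DMSO replicate 1 or 3 and without PK9328 replicate 1 or 2. Its short non-coding transcript BLOC1S2-201 (425 bases) read 3.6 to 5.4 TPM with DMSO and 9.2 to 9.9 TPM with PK9328, and the part of the shorter fragments in this was not tested. CYFIP2 passed in no comparison.

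**Figure D5:**
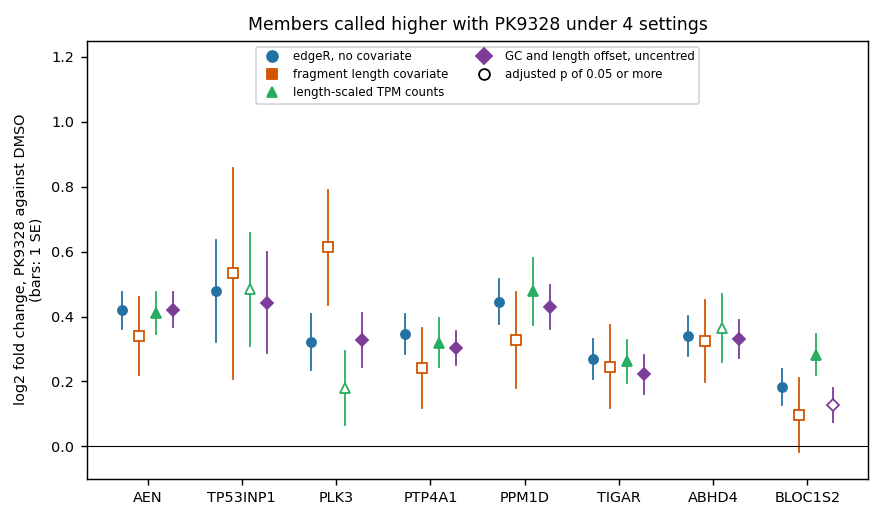
Log2 fold change of PK9328 against DMSO (y axis, bars of 1 SE) for the 8 members called higher (x axis) under 4 settings, with open symbols where the adjusted p was 0.05 or more. Every square, the fit with fragment length as a covariate, is open and above 0, with PLK3 at 0.61 and BLOC1S2 at 0.10.

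Read across the 3 comparisons, 17 of the 42 members (40.5%) passed in none, beside 45.1% of all genes tested, among them the well-known targets FAS, DDB2 and FDXR. In 8 members (19.0%, beside 11.8% of all genes) the level fell with MS172, did not pass with PK9328 and was lower with MS172 than with PK9328, namely PHLDA3, DRAM1, XPC, REV3L, ASCC3, PLK2, CES2 and ORAI3. Of these 8, DRAM1, ASCC3, CES2 and ORAI3 lost the direct call with the fragment length covariate. With counts rebuilt from TPM and length, DRAM1, REV3L, ASCC3 and ORAI3 lost the MS172 call against DMSO. REV3L, ASCC3 and ORAI3 then lost the direct call too. PLK3 and PPM1D fell with MS172 and rose with PK9328, as did 2.30% of all genes, which were then also lower in the direct comparison. The PK9328 calls of PLK3 and PPM1D were lost with the fragment length covariate, and the MS172 call of PPM1D under DESeq2. AEN, PTP4A1 and TIGAR rose with PK9328 and were also lower with MS172 than with PK9328 without passing against DMSO with MS172, a pattern of 3.12% of all genes, and TIGAR kept the latter call in 1 of 6 fits that left out a library. Among the members at 1 CPM or more on average, the largest direct differences were those of PPM1D and PLK3, at 15.5, 14.8 and 14.8 against 25.9, 22.4 and 24.5 CPM and at 9.43, 10.7 and 11.0 against 15.6, 18.1 and 16.2 CPM. AEN was lower with MS172 by 25.0% (edgeR, adjusted p = 8.23e-07) and PLK2 by 22.8% (adjusted p = 4.39e-10). With the fragment length covariate the AEN difference did not pass (edgeR, adjusted p = 0.0587), and that of PLK2 did. Besides RRM2B, the other lower calls outside the named rule, chosen after their values were seen, were the ankyrin gene ANKRA2, the mitochondrial CCDC90B and ACER2, which was under 1 CPM on average in both groups and stood at -0.90 on the log2 scale (adjusted p = 0.048 by edgeR). In fits that left out a library, ANKRA2 kept its call in 2 of 6 and ACER2 in 1 of 6, and the higher call of RPS27L held in 3 of 6. Among members that did not pass, the 95% interval lay within 0.5 of 0 on the log2 scale for 25 of 29 with MS172 and 31 of 34 with PK9328.

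Among 23 tested regulators of p53, 4 rose (17.4%) and 8 fell (34.8%) with MS172, beside 17.9% and 17.2% of all genes. With PK9328, 4 rose (17.4%) and 2 fell (8.70%), beside 7.98% and 7.48%. MDM4, which binds and silences p53, fell with MS172 by 0.38 with an SE of 0.09 (edgeR, adjusted p = 8.58e-04) and rose with PK9328 by 0.29 with an SE of 0.08 (adjusted p = 0.0119). Both MDM4 calls were lost with counts rebuilt from TPM and length, and the PK9328 call also with the fragment length covariate and without PK9328 replicate 1 or 2. MDM2, at 3.3 to 4.9 CPM with DMSO, had log2 fold changes of 0.01 and -0.38 and passed in neither (edgeR, adjusted p = 0.983 and 0.11). With PK9328 it passed without DMSO replicate 2 (adjusted p = 0.0189) and with the uncentred GC and length offset (adjusted p = 0.0384). TP63, a p53 relative that binds similar elements, read 136, 139 and 130.4 CPM with DMSO, 113, 109 and 109 CPM with MS172, and 157, 160 and 159 CPM with PK9328. It fell with MS172 by 0.30 with an SE of 0.04 and rose with PK9328 by 0.23 with an SE of 0.04 (edgeR, adjusted p = 4.24e-07 and 4.68e-05), and the rise did not pass with the fragment length covariate (adjusted p = 0.237). The acetyltransferase genes EP300 and CREBBP had values of 0.15 and -0.07 with MS172, neither of which passed, and 0.08 and 0.19 with PK9328, where CREBBP passed (edgeR, adjusted p = 0.0182). The CREBBP call was lost without DMSO replicate 3 or PK9328 replicate 2, under DESeq2, with counts rebuilt from TPM and length and with the covariate. EP300 with MS172 (edgeR, adjusted p = 0.0544) passed in 6 of 11 other settings, RLE size factors among them (adjusted p = 0.0338), and without DMSO replicate 2 (adjusted p = 0.0156).

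Of 42 tested further genes described as p53-activated, 10 rose (23.8%) and 5 fell (11.9%) with MS172, beside 17.9% and 17.2% of all genes. With PK9328, 3 rose (7.14%) and 5 fell (11.9%), beside 7.98% and 7.48%. Of the 7 p53 targets that ATF4 or CHOP also activate, 4 rose with MS172 (57.1%) and 7 with PK9328 (100%). The shares of all genes higher were 17.9% and 7.98%. The median log2 fold changes of the 7 were 0.28 and 0.72, against -0.02 and 0.00 over all genes. CDKN1A, the cell cycle inhibitor p21, was one of the 7. It read 15.5, 12.8 and 15.9 CPM with DMSO, 19.1, 21.7 and 20.1 CPM with MS172, and 21.5, 24.6 and 24.6 CPM with PK9328. CDKN1A rose by 0.47 on the log2 scale with MS172 and by 0.68 with PK9328 (edgeR, adjusted p = 6.84e-05 and 5.46e-07). Both calls held in all 11 other settings, the fragment length covariate among them. For the rest of the 7 only the fit without the covariate is given here. These 7 genes were picked for their second regulator, and the medians stand beside 0.01 and 0.03 for the 42 members, which moved with the library left out as given above, as a description.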

How the data were processed

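Each library's deposited table lists 197653 transcripts with estimated counts of reads, which need not be whole, and with TPM, which the authors' quantification scales by effective length, per the file headers. FastQC 0.11.8 and hg38 are named in the submitters' processing notes. The quantification program is not given in the sources used here. Of the transcripts, 193348 matched GENCODE 29, and their counts were summed per gene and rounded. The rest held 0.357% to 0.382% of a library's reads. Groups came from the sample titles. Nothing in the labels says whether replicates were separate cultures, and the p-values then measure the spread between these samples alone, which may be technical.

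Each comparison used edgeR 4.0.16 (R 4.3.3), quasi-likelihood with robust dispersion, TMM and filterByExpr, all 9 libraries in 1 fit (6 residual degrees of freedom) and Benjamini-Hochberg adjustment over 13914 genes with a threshold of 0.05. The alternatives were DESeq2 1.42.0, limma-voom (limma 3.58.1), RLE size factors, a replicate block, no filter, at least 1 CPM in 3 libraries, length-scaled TPM counts, a fit of only the groups compared, a GC and length offset (mgcv 1.9.3), each library left out, and fragment length as a covariate. Fragment length was estimated as transcript minus effective length for transcripts of 3000 bases or more. The members, lists and tests were chosen with earlier results of these data known. Members named with values are those past the threshold with at least 1 CPM on average (the 12 smallest p where more passed in 1 direction) and a list of textbook targets and p53 regulators whatever their result; 1 gene that the rule names is not reported here. Transcript levels and promoter matches are descriptions without a test. Single values of genes with close paralogues, pseudogenes or overlapping neighbours are uncertain, since shared reads had been split before deposit.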

Additional observations from a re-analysis of the deposited data

How the results depend on the processing

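With MS172, 5 members were higher with RLE size factors, 5 with the replicate block and 7 with the uncentred GC and length offset, where the median was 0.078, and 6 were lower with length-scaled TPM counts. Without a filter the median was -0.024. Leaving out a library gave 3 to 5 higher (5 without DMSO replicate 1 or MS172 replicate 1), 9 to 10 lower and medians of -0.012 to 0.025. With PK9328, 0 were higher and the median was 0.076 with the fragment length covariate, 1 was lower with the centred offset and 2 with the uncentred one. Leaving out a library gave 6 to 8 higher, 0 to 1 lower and medians of 0.038 to 0.0798. Between the compounds, length-scaled TPM counts gave 2 higher and 11 lower, the covariate 1 and 6, the centred offset 7 higher with a median of -0.089, the uncentred offset 9 higher with a median of -0.015, and no filter a median of -0.14. Leaving out a library gave 2 to 4 higher (2 without MS172 replicate 2 or PK9328 replicate 2), 14 to 16 lower and medians of -0.14 to -0.11. The causes were not tested. Over all genes, the uncentred offset moved the split of higher and lower calls from 2486 and 2398 to 3772 and 1632 with MS172, from 1110 and 1041 to 1074 and 1578 with PK9328, and from 3240 and 3401 to 4568 and 2414 between the compounds.

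Same-numbered libraries did not deviate together (correlations of -0.057 to 0.017), so the numbers were not taken to pair the samples. With the replicate block, all 13, 8 and 21 members called in the 3 comparisons kept their call. With MS172, 5 members were then higher, CCNG1 among them (edgeR, adjusted p = 0.0389). The regulator EP300, which is not a member, passed as well (edgeR, adjusted p = 0.0465).

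Of the called members and the textbook targets and regulators recomputed in every setting, the values whose sign turned had not passed. With length-scaled TPM counts FAS was -0.047, AEN -0.00605, DDB2 -0.0297 and MDM2 -0.087 with MS172. With the covariate MDM2 was -0.0024 with MS172, and DDB2 0.0802 with PK9328. With the centred offset FDXR was -0.047 and MDM2 -0.029 with MS172 and CCNG1 -0.017 with PK9328. With the uncentred offset CREBBP was 0.0199 with MS172 and CCNG1 -0.037 with PK9328. PHLDA3 was -0.00046 with PK9328 under DESeq2. Leaving out a library, values with MS172 ran from -0.042 to 0.102 for FAS, -0.021 to 0.024 for AEN, -0.00069 to 0.088 for DDB2, -0.062 to 0.079 for ZMAT3, -0.023 to 0.0402 for FDXR and -0.16 to 0.11 for MDM2. With PK9328 they ran from -0.11 to 0.036 for FAS, -0.017 to 0.044 for PHLDA3, -0.061 to 0.044 for DDB2, -0.033 to 0.076 for CCNG1 and -0.12 to 0.028 for SESN1.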
